A study of Mus musculus with 10 samples.

Results

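The lysyl oxidases are the copper-dependent enzymes that cross-link elastin and collagen outside the cell, and the mouse family has 5 members, Lox, Loxl1, Loxl2, Loxl3 and Loxl4. They were taken by their symbols from the count table of aortic RNA, a rule that uses no measured value, but the family was picked with a lower Lox in old aortae already known. All 5 were among the 28011 genes with a count and among the 14614 genes tested. The study compared aortae of 5 young male C57BL/6 mice, aged 14.5 weeks, with those of 5 old mice, aged 92.5 weeks by the sample labels. The labels name no transgene or drug treatment for either age. All mice were bought from 1 supplier, and both ages were sacrificed at the same time. Aortae were perfused with saline, stripped of periadventitial fat and made into poly(A) RNA libraries, 1 mouse per library. Between 19640401 and 22886153 reads per library were counted on genes. Mitochondrial genes took 4.5 to 6.51% of the counts in 9 libraries and 11% in the library of old mouse 2, which therefore stands apart.

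A lysyl oxidase removes the amine of lysine side chains and leaves an aldehyde, and these aldehydes then react with neighbouring lysines to form the cross-links that make elastic fibres elastic and collagen fibres strong. The catalytic end of the protein, with its copper site, is shared by the whole family. Lox and Loxl1 carry a pro-peptide in front of it, whereas Loxl2, Loxl3 and Loxl4 carry scavenger receptor domains. In the artery wall the enzymes are made mainly by smooth muscle cells and fibroblasts, and mice without Lox die at birth with ruptured aortae.

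Reads were counted by gene, so whether a count belongs to 1 member depends on sequence that the members do not share. The coding stretch around the copper site, which lies in the catalytic end common to the family, is shown for 4 members, without Lox, and for Gm21451, an annotated pseudogene copy of Loxl2, with the codons for histidine in capitals. Each stretch has 27 bases and was read from the GENCODE M21 transcripts of GRCm38, 5′ to 3′ on the coding strand.
Loxl1: tggCATagctgtCACcaaCATtacCAC
Loxl2: tggCACgactgcCACaggCACtacCAC
Loxl3: tggCATgagtgtCATgggCATtacCAC
Loxl4: tggCACcagtgcCACaggCACtacCAC
Gm21451: tggCACgactgcCACaggCACtacCAC

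In each of these genes the stretch crosses a splice junction. In Loxl1, on the minus strand of chromosome 9, it starts in exon 3 of 7 (chr9:58294359-58294375) and ends in exon 4 (chr9:58293720-58293729). In Loxl2, on the plus strand of chromosome 14, it joins exon 10 of 14 (chr14:69682322-69682338) to exon 11 (chr14:69689028-69689037). Loxl3 has the same exon numbers on the plus strand of chromosome 6 (chr6:83050001-83050017 and chr6:83050116-83050125). Loxl4 joins exon 11 of 15 (chr19:42599877-42599893) to exon 12 (chr19:42598807-42598816) on the minus strand of chromosome 19. The sequence of Loxl2 differed from that of Loxl4 at 2 of 27 bases, from that of Loxl3 at 6 and from that of Loxl1 at 8. It did not differ from that of Gm21451 at any of the 27 bases.

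Over the whole gene, 45% of the 50-base windows of Loxl2 also occurred in another gene, mostly in Gm21451 (chr14:69390854-69480287). To Gm21451, 3 to 9 reads per library were counted. How the counting treated reads that match both Loxl2 and Gm21451 was not given in the sources used here, so the level of Loxl2 is uncertain. Adding the counts of Gm21451 left the log2 fold change of Loxl2 at −0.41. With 744 to 1597 reads of Loxl2 per library, so few added reads could hardly move it. Reads counted to neither gene would not enter this sum. No 50-base window of Lox, Loxl1 or Loxl4 was found in another gene. For Loxl3, 8.54% of the windows were shared, mostly with Htra2 on the opposite strand. The strand setting of the counting was not given, so reads of that overlap cannot be told apart without it. In the last 600 coding bases, the members were identical to each other at 66.2 to 74.1% of aligned bases. Over the whole coding sequences, the longest run shared by any pair had 32 bases, in Lox and Loxl1.

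Lox, which encodes the founding enzyme of the family, was the member that fell most in old aortae. Its normalized counts, which are counts divided by the size factor of each library, were 5537, 7438, 7326, 8033 and 7138 in young mice 1 to 5. In old mice 1 to 5 they were 3585, 2399.5, 2729, 3288 and 2132. Every old aorta lay below every young aorta. The mean was 7095 ± 933 (SD, n = 5) in young and 2826 ± 604 (SD, n = 5) in old aortae, a fold of 0.401 with a log2 fold change of −1.32 (SE 0.14, adjusted p = 0.000241, edgeR's quasi-likelihood test with Benjamini-Hochberg adjustment over all tested genes). Among the 729 genes called lower in old aortae, Lox stood at place 22 by p and at place 58 by the size of its fall. Without old mouse 2, whose mitochondrial share was high, the log2 fold change of Lox was −1.27 (adjusted p = 0.000671, edgeR). Lox lies on chromosome 18 (GRCm38, 52516067 to 52529867, minus strand), and 0.628% of its exonic sequence is overlapped by an antisense gene.

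**Figure D1:**
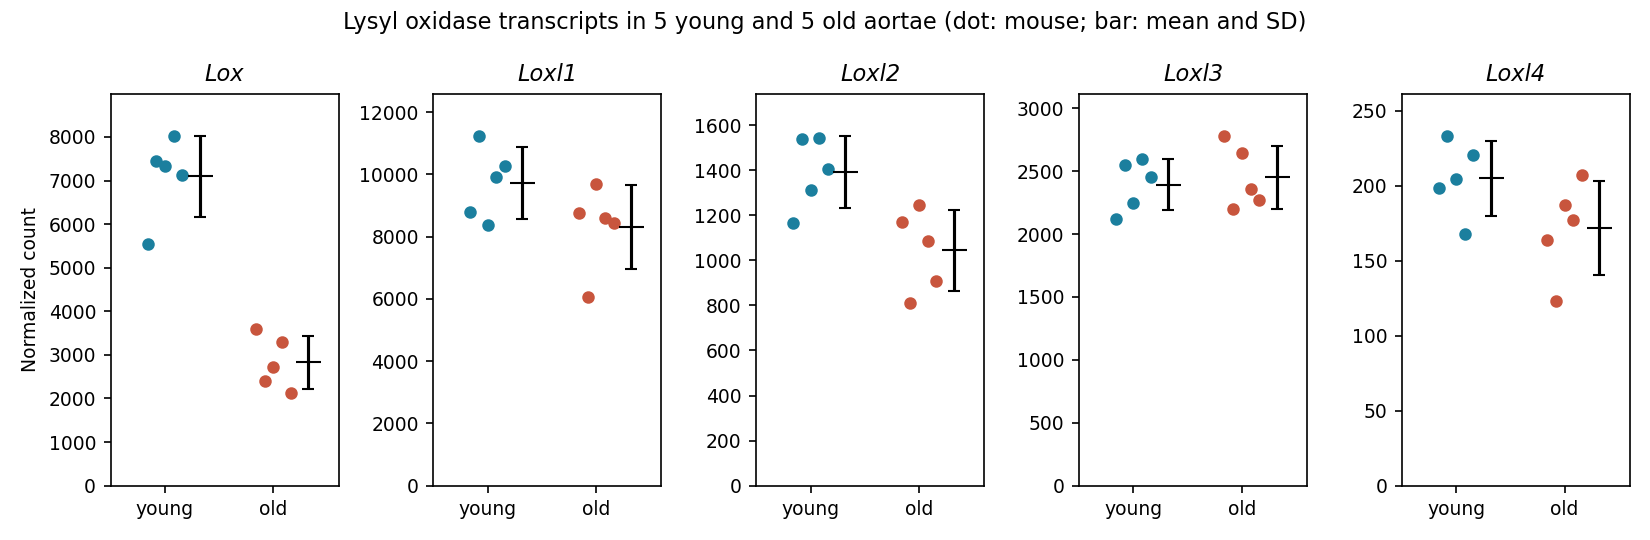
Normalized count (vertical axes, each from 0) of the 5 lysyl oxidase genes in young and old aortae, 1 dot per mouse, with mean and SD (n = 5) beside the dots. For Lox the old aortae, at 2132 to 3585, lie below all young aortae, at 5537 to 8033, whereas the dots of the other 4 genes overlap between the ages.

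Loxl2, whose enzyme acts on collagen IV of basement membranes as well as on fibrillar collagen, also fell, but by less. Its normalized counts were 1164, 1541, 1314, 1542 and 1407 in young mice 1 to 5, and 1168, 811, 1244, 1086 and 909 in old mice 1 to 5. Old mice 1 and 3 reached the range of the young mice, and the other 3 old mice lay below it. The mean went from 1394 ± 160 to 1044 ± 180 (SD, n = 5 each), with a log2 fold change of −0.41 (SE 0.12, adjusted p = 0.0418, edgeR). This call was close to the threshold. It was lost without young mouse 2, 3, 4 or 5 or old mouse 2, 4 or 5, each left out alone, with adjusted p-values of 0.0578 to 0.103 (edgeR), and when no low-count filter was used (0.0693). The call was kept with DESeq2 (adjusted p = 0.0103) and with limma-voom and quality weights (adjusted p = 0.00597). Of 22 alternatives, 12 kept the call and 10 lost it.

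Loxl1, the enzyme that is bound to elastic fibres and is needed to renew them in adult tissue, had the largest counts of the family. Its normalized counts were 8781, 11249, 8382, 9924 and 10271 in young mice 1 to 5. In old mice 1 to 5 they were 8775, 6054, 9676, 8584 and 8449. Old mouse 2 was the only old aorta outside the range of the young aortae. The log2 fold change was −0.22 (SE 0.12, adjusted p = 0.252, edgeR), with a 95% interval from −0.47 to 0.03. Without old mouse 2 it was −0.13 (adjusted p = 0.386, edgeR).

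Loxl3, which is needed for cartilage and palate development, was measured at 2121, 2546, 2243, 2595 and 2456 normalized counts in young mice 1 to 5. Old mice 1 to 5 had 2783, 2202, 2643, 2362 and 2272. The groups overlapped, and the log2 fold change was 0.04 (SE 0.08, adjusted p = 0.775, edgeR) with a 95% interval from −0.13 to 0.21. Its sign changed with the processing, down to −0.01 after correction for GC content and length.

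Loxl4 had the smallest counts of the family. The 5 young mice had 168 to 233 normalized counts with a median of 204, and the old mice 123 to 207 with a median of 177. The log2 fold change was −0.24 (SE 0.14, adjusted p = 0.275, edgeR), with a 95% interval from −0.54 to 0.05. Without old mouse 2 it was −0.15 (adjusted p = 0.458, edgeR). Thus 2 of the 5 lysyl oxidases passed the test, both with lower counts in old aortae. Of all 14614 tested genes, 11.5% passed it, with 4.99% lower and 6.48% higher in old aortae. The 2 groups of normalized counts did not overlap for 1 of the 5 members, Lox, and for 9.92% of all tested genes.

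Counts of different genes cannot be compared directly because longer transcripts give more reads. After division by exonic length and scaling to the same sum in every library, in TPM units, Loxl1 had the highest level in young aortae, at 472 ± 56.7 (SD, n = 5). Lox followed at 238 ± 30.7, Loxl3 at 83.2 ± 7.11, Loxl2 at 41.3 ± 4.74 and Loxl4 at 7.78 ± 0.92 TPM. No pair of neighbours in this order overlapped among young mice. In old aortae Loxl1 again had the highest level, at 400.3 ± 75.5 TPM. Lox, at 93.8 ± 21.8 with a range of 71.9 to 119, now overlapped with Loxl3, at 84.3 ± 9.96 with a range of 70.4 to 95.7. Lox was above Loxl3 in old mice 1, 2 and 4 and below it in old mice 3 and 5. The order of these 2 genes in old aortae depended on the length used. Of the summed level of the 5 genes, Lox took 15.3% and Loxl3 13.9% on average with the exonic length. With the length of the longest transcript, Lox took 15.1% and Loxl3 15.2%. Loxl2 was at 30.6 ± 5.94 and Loxl4 at 6.48 ± 1.37 TPM in old aortae, both outside the range of their neighbours.

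The summed level of the 5 genes was 842 ± 86.9 TPM in young aortae, with a range of 735 to 937, and 616 ± 104 in old aortae, with a range of 441 to 693. The groups did not overlap, and the lowest value was that of old mouse 2. Lox made up 28.2 ± 2.54% (SD, n = 5) of this sum in young aortae and 15.3 ± 2.54% (SD, n = 5) in old ones. Single mice ranged from 25.5 to 31.6% and from 12 to 17.6%. The share of Loxl1 was 56.0 ± 2.75% in young and 64.8 ± 3.25% in old aortae. The share of Loxl3 was 9.90 ± 0.295% and 13.9 ± 1.30%. Loxl2, at 4.90 and 4.97%, and Loxl4, at 0.931 and 1.05%, kept small shares. These are descriptions of 1 sum, in which a lower share of 1 gene raises the others, and they were not tested. When the length of Loxl2 was reduced to the part not found in another gene, its share was 8.57% in young and 8.68% in old aortae, still below that of Loxl3.

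**Figure D2:**
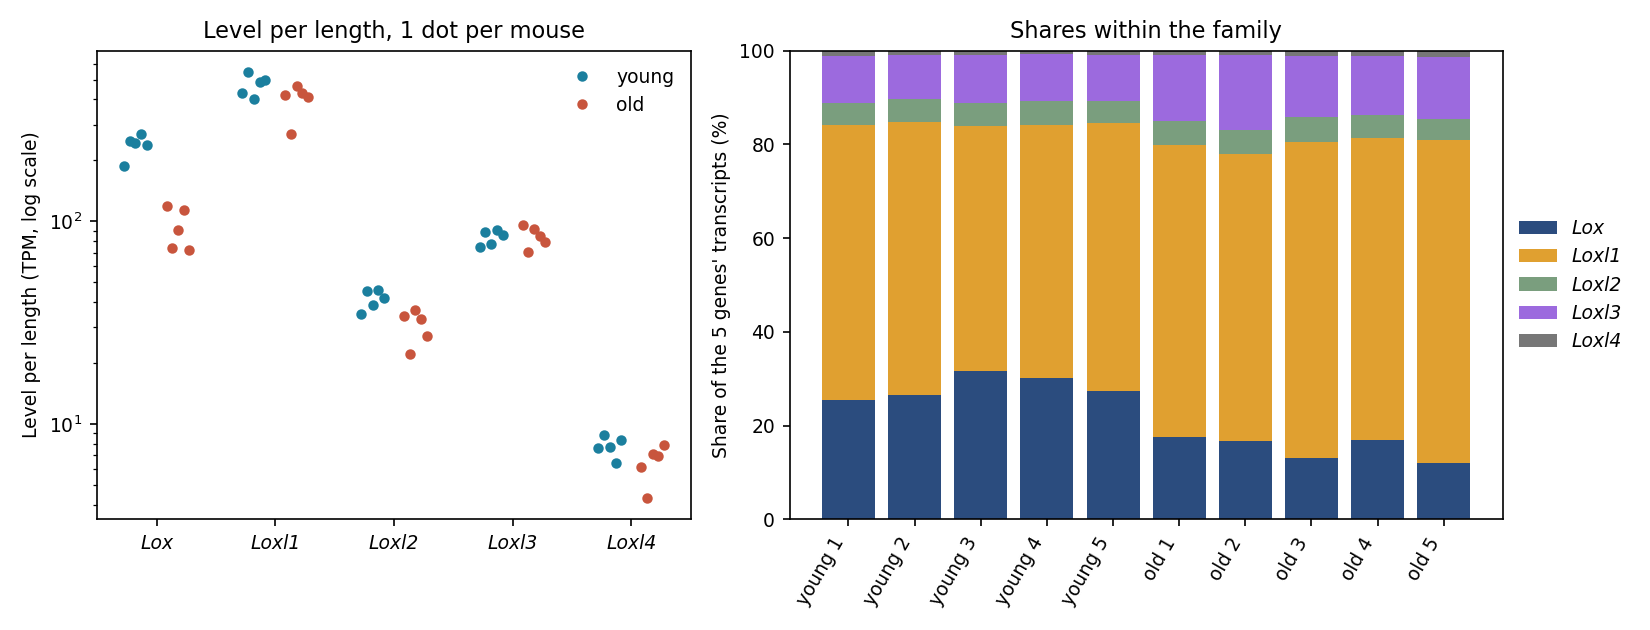
Left, level in TPM (log axis) of each lysyl oxidase, 1 dot per mouse, with young beside old. Right, share of each gene in the summed level of the 5 genes in percent for each of the 10 mice. The Lox segment takes 25.5 to 31.6% in young and 12 to 17.6% in old mice, and in old mice the Lox dots reach down to those of Loxl3.

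Whether 1 member fell relative to another was tested on the log2 ratio of their counts in the same mouse, which does not depend on how libraries are scaled. For all 10 pairs the ages were set against each other in an exact permutation test, two-sided, and p-values were adjusted over the 10 pairs. The ratio of Lox to Loxl1 averaged −0.46 ± 0.20 over the 5 young mice and −1.56 ± 0.32 over the 5 old mice (SD), a difference of −1.11 (SE 0.17, exact p = 0.007937, adjusted p = 0.01323). The ratio of Lox to Loxl3 went from 1.56 ± 0.12 to 0.18 ± 0.23, a difference of −1.38 (SE 0.12). Against Loxl2 the difference was −0.92 (SE 0.11) and against Loxl4 −1.08 (SE 0.23). In all 4 ratios, every old mouse lay below every young mouse, and each had the exact permutation p of 0.007937, the smallest that 5 against 5 mice allow. Lox therefore fell by more than each of the other 4 members.

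The remaining 6 pairs leave Lox out. The ratio of Loxl2 to Loxl3 fell from −0.78 ± 0.05 to −1.24 ± 0.15, a difference of −0.46 (SE 0.07, exact p = 0.007937, adjusted p = 0.01323, n = 5 each), with no overlap between the ages. The ratio of Loxl1 to Loxl3 fell by 0.27 (SE 0.10, exact p = 0.007937, adjusted p = 0.01323), also without overlap. It missed the threshold without young mouse 2, with an adjusted exact p of 0.0567, or without young mouse 5, with 0.0529. The ratio of Loxl1 to Loxl2 was 0.19 higher in old aortae (SE 0.08, exact p = 0.02381, adjusted p = 0.03401), and the ages overlapped. Its call was lost without young mouse 2, 3, 4 or 5 or old mouse 5, with adjusted exact p-values of 0.0567 to 0.0992. For Loxl1 over Loxl4 the difference was 0.03 (SE 0.11, adjusted exact p = 0.7778), for Loxl2 over Loxl4 −0.16 (SE 0.17, adjusted exact p = 0.5203) and for Loxl3 over Loxl4 0.30 (SE 0.16, adjusted exact p = 0.1389). The last passed without young mouse 4 or without old mouse 5, with an adjusted exact p of 0.0454 each. The 10 ratios share 5 genes and are not independent of each other.

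**Figure D3:**
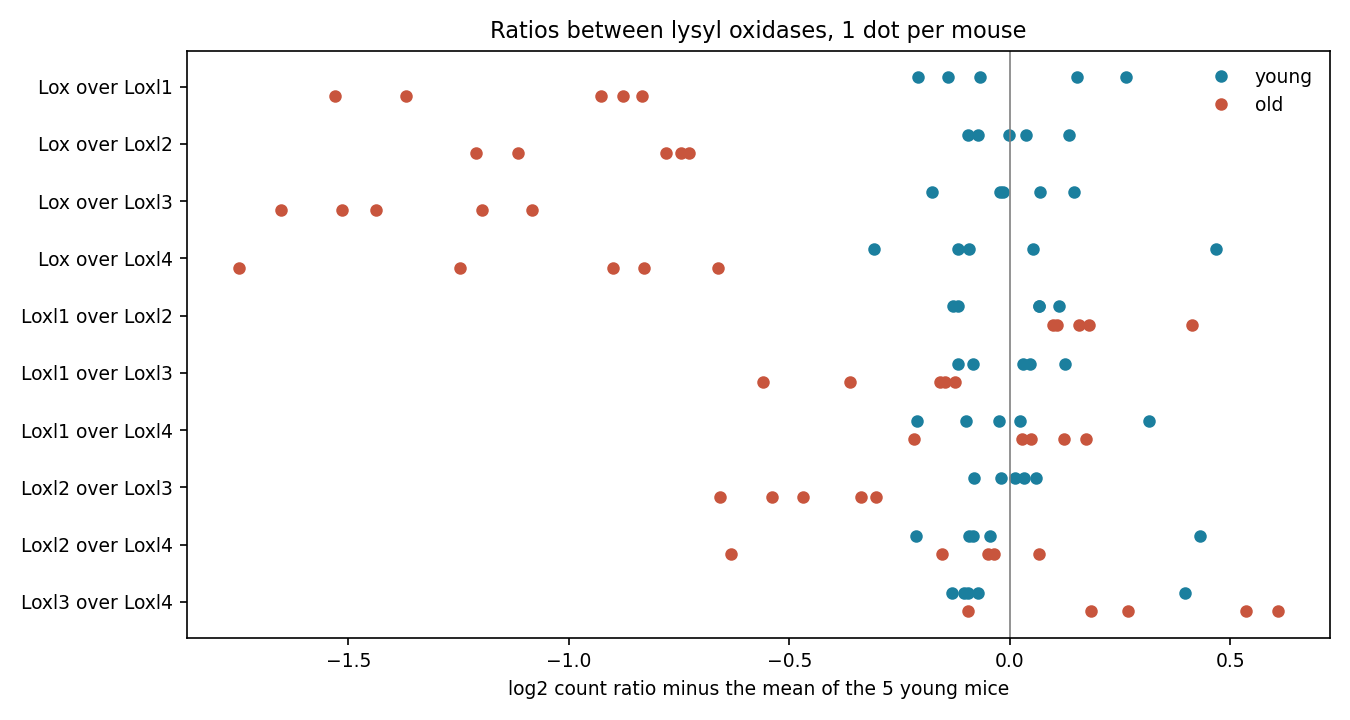
Log2 count ratio of each pair of lysyl oxidases in each mouse (horizontal axis, minus the mean of the 5 young mice), 1 dot per mouse. The 4 ratios with Lox on top are shifted left in every old mouse, by −0.92 to −1.38 on average, and those over Loxl4 of Loxl1 and Loxl2 overlap between the ages.

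The mice of 1 age also differed among themselves, and it was asked whether members varied together once the mean of each age was taken out. Over the 10 mice, Loxl2 and Loxl3 did so most closely, with Pearson's r = 0.913 (permutation p = 0.00139, adjusted over 10 pairs 0.0092) and Spearman's rho = 0.939 (permutation p = 0.00085, adjusted 0.0085). Without old mouse 2 and young mouse 1, the 2 mice farthest from the median of Loxl2, r was 0.87. Loxl1 and Loxl2 had r = 0.844 (permutation p = 0.00184, adjusted 0.0092) and rho = 0.855 (permutation p = 0.00681, adjusted 0.034), and r = 0.818 without the 2 farthest mice. This relation no longer passed without old mouse 2 alone (r = 0.739, exact permutation p adjusted over 10 pairs 0.104). The other 8 pairs did not pass. Lox had r = 0.753 with Loxl2 and 0.749 with Loxl3 (adjusted permutation p = 0.0729 for both), 0.401 with Loxl1 (adjusted permutation p = 0.495) and −0.08 with Loxl4 (adjusted permutation p = 0.866). These values share libraries, so that depth and RNA composition of a library enter both genes of a pair.

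**Figure D4:**
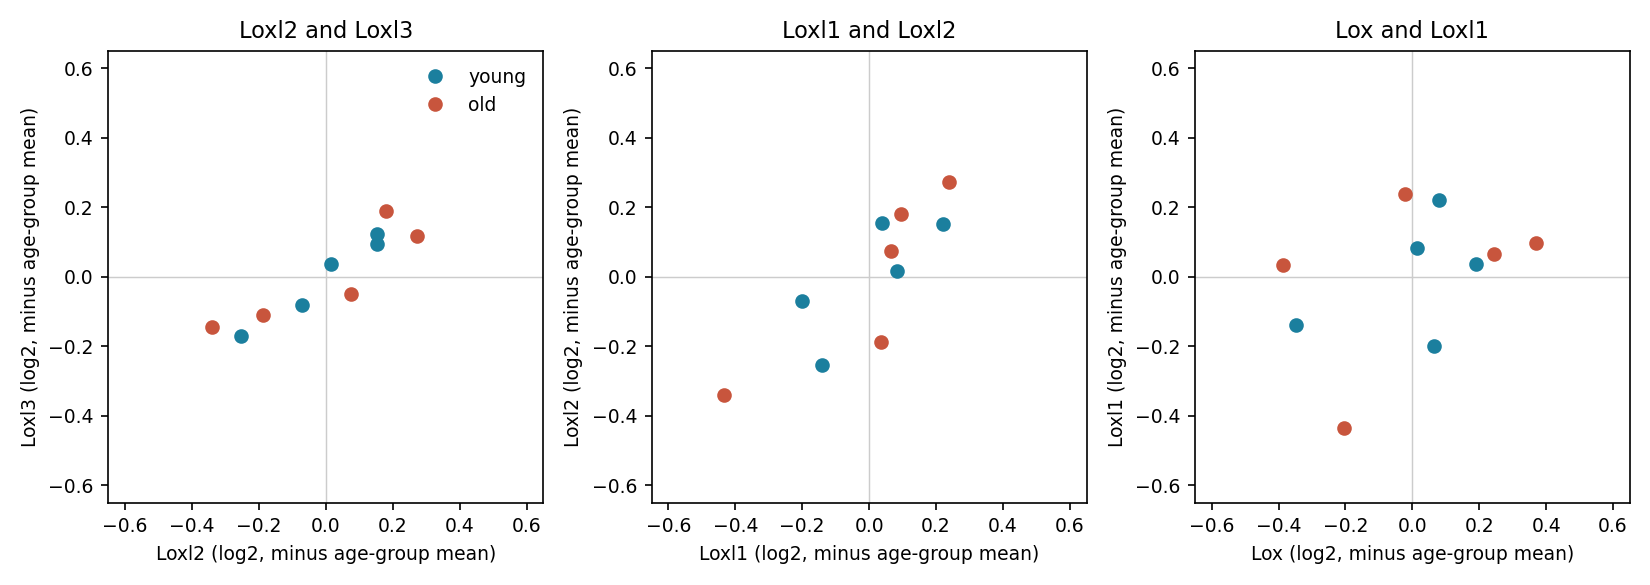
Log2 level of 1 lysyl oxidase against another in each mouse after the mean of its age group was subtracted, for Loxl2 and Loxl3, Loxl1 and Loxl2, and Lox and Loxl1 (10 mice each). The dots follow a line closely in the first panel (r = 0.913), less so in the second (r = 0.844) and loosely in the third (r = 0.401).

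By the same measure, the tested genes most like each member were listed, as a description over 10 mice and 14613 genes. For Lox they were Peg13 (r = 0.951), Uggt1 (0.937), Gm34471 (0.93), Polr3f (0.93) and Klhl42 (0.923). For Loxl1 they were Cercam (r = 0.98), Aebp1 (0.969), Plxnb2 (0.965), Ccdc80 (0.962) and Col1a2 (0.96), the last of which encodes a chain of collagen I. For Loxl2 they were Ltbp3 (r = 0.966), a protein that binds latent TGF-beta, Fhl1 (0.966), Slc22a18 (0.959), Ccdc3 (0.95) and Ckap4 (0.95). For Loxl3 they were P2ry2 (r = 0.973), Col5a2 (0.961), Snx19 (0.959), Apoa2 (0.952) and Fads3 (0.93). For Loxl4 they were Ost4 (r = 0.973), St6galnac6 (0.958), Mxra7 (0.945), Atp6v1f (0.932) and Pcdhga7 (0.916). With so many genes and 10 mice, high values arise for some genes of any list, and 5% of all genes had an r above 0.654 to 0.699, depending on the member.

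Transcripts of several proteins that lysyl oxidases cross-link were also lower in old aortae. Of 11 tested genes for fibrillar collagens and elastin, 6 fell and 5 did not pass, and the median log2 fold change was −0.48 beside 0.00 for all tested genes. Of all tested genes, 4.99% were called lower and 6.48% higher, the shares to set beside this and each later group. Of the 11 log2 fold changes, 9 were negative and 2 positive. The largest in size was that of Col2a1, at 2.19 (SE 0.80, adjusted p = 0.108, edgeR), named here after its values were seen. Its normalized counts were small, 2.04 to 29.9 in young and 9.81 to 116 in old mice. With limma-voom and quality weights, with a replicate block or without young mouse 3, 1 gene of this group was called higher. Eln, the gene of elastin, was at 96991 to 147150.0 normalized counts in young mice with a median of 114070.0, and at 36052 to 77957 in old mice with a median of 63396. Its log2 fold change was −0.95 (SE 0.21, adjusted p = 0.0131, edgeR), which missed the threshold when no low-count filter was used (adjusted p = 0.053, edgeR). Collagen III, the product of Col3a1, had 66952 to 85368 normalized counts in young and 31795 to 46858 in old mice, a log2 fold change of −0.93 (SE 0.11, adjusted p = 0.000241, edgeR). The chains of collagen I fell by 0.91 for Col1a1 (SE 0.15, adjusted p = 0.00277, edgeR) and by 0.75 for Col1a2 (SE 0.13, adjusted p = 0.00282, edgeR) on the log2 scale. Collagen V, which starts collagen fibrils, fell by 0.54 for Col5a2 (SE 0.09) and by 0.33 for Col5a1 (SE 0.08). Of these 6 genes, Col5a1 was the only one whose ages overlapped. The falls of Col1a1, Col1a2, Col3a1, Col5a1, Col5a2 and Eln were each smaller in size than that of Lox, a difference between genes that was not tested.

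Of the 6 chains of collagen IV, the network collagen of basement membranes, 3 fell and 3 did not pass, with a median log2 fold change of −0.35. Col4a5 fell by 0.60 (SE 0.09, adjusted p = 0.000749, edgeR) and Col4a6 by 0.38 (SE 0.08, adjusted p = 0.0083, edgeR), both without overlap. Col4a1 had a log2 fold change of −0.47 (SE 0.11, adjusted p = 0.0185, edgeR) with overlap, and its adjusted p was 0.0532 without young mouse 4.

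Elastic fibres are laid down on a scaffold of fibrillin microfibrils, and fibulins bring elastin and Lox to it. Of 15 tested genes of this group, 6 fell, 1 rose and 8 did not pass, with a median log2 fold change of −0.15. Mfap5, a microfibril protein, had 6246 to 8056 normalized counts in young and 2788 to 4198 in old mice, a log2 fold change of −1.03 (SE 0.11, adjusted p = 9.75e-05, edgeR). Mfap4 fell by 0.95 (SE 0.16) and Fbn1, the gene of fibrillin-1, by 0.57 (SE 0.10), and the ages of neither overlapped. Of the windows of Fbn1, 19.7% also occurred in another gene, mostly in Gm9913 on its opposite strand. The fibulin genes went different ways. Fbln1 had a log2 fold change of −0.38 (SE 0.10, adjusted p = 0.0306, edgeR) and Fbln2 of −0.35 (SE 0.08, adjusted p = 0.0103, edgeR), and both are named here after their values were seen. Efemp1, the gene of fibulin-3, rose from 414 to 574 normalized counts in young mice to 1319 to 1916 in old mice, a log2 fold change of 1.73 (SE 0.11, adjusted p = 1.87e-06, edgeR). Efemp2, the gene of fibulin-4, which binds Lox and tropoelastin, had a log2 fold change of 0.05 (SE 0.06, adjusted p = 0.634, edgeR), turning to −0.005 after correction for GC content and length. Fbln5, the gene of fibulin-5, which binds Loxl1, had −0.31 (SE 0.11, adjusted p = 0.088, edgeR), and passed with DESeq2 (adjusted p = 0.0452), with limma-voom and quality weights (0.0279) and in edgeR without old mouse 3 (0.0375).

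Lox is secreted as a pro-enzyme, is cut by procollagen C-proteinase and binds matrix proteins such as fibronectin and periostin. In this group 1 of 9 tested genes fell and 8 did not pass, with a median log2 fold change of −0.19. The one that fell was Pcolce2, an enhancer of procollagen C-proteinase, with 4075 to 5096 normalized counts in young and 1715 to 2786 in old mice and a log2 fold change of −0.95 (SE 0.12, adjusted p = 0.000519, edgeR). Bmp1, the proteinase itself, had a log2 fold change of −0.13 (SE 0.07, adjusted p = 0.284, edgeR), and the related enhancer Pcolce −0.19 (SE 0.15, adjusted p = 0.483, edgeR).

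The enzymes need copper, which Slc31a1 brings into the cell and Atp7a pumps into the secretory pathway. Of 7 tested genes of copper supply, 1 fell and 6 did not pass, with a median log2 fold change of 0.09. Slc31a1 had 457 to 511 normalized counts in young and 352 to 408 in old mice, a log2 fold change of −0.29 (SE 0.07, adjusted p = 0.0115, edgeR). For Atp7a it was −0.18 (SE 0.11, adjusted p = 0.356, edgeR).

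Lysines are hydroxylated and collagen is folded before the cross-linking step. Of 18 tested genes of these steps, 1 fell and 17 did not pass, with a median log2 fold change of −0.13. This share is near the 4.99% of all tested genes called lower. The number called lower was 2 with DESeq2, 7 with limma-voom and quality weights, and 3 in edgeR without young mouse 1 or without old mouse 1. The gene that fell was Serpinh1, the gene of the collagen chaperone HSP47, with a log2 fold change of −0.54 (SE 0.12, adjusted p = 0.0102, edgeR) and 19940.0 to 29766 normalized counts in young against 14916 to 19110.0 in old mice.

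Other enzymes cross-link the matrix too. Of 4 tested genes of this kind, F13a1, the A chain of coagulation factor XIII, rose by 0.63 (SE 0.15, adjusted p = 0.0197, edgeR), and Pxdn, the gene of peroxidasin, which links collagen IV, fell by 0.57 (SE 0.08, adjusted p = 0.000976, edgeR). The call of F13a1 was lost when no low-count filter was used (adjusted p = 0.066, edgeR). Macrophages also express F13a1. Their 6 summed markers took 0.0302 to 0.0404% of counts in young and 0.0403 to 0.0802% in old aortae, and their part in the change of F13a1 was not tested. Among 6 tested genes of other amine oxidases, Aoc3, the vascular amine oxidase of smooth muscle and fat, fell by 0.44 (SE 0.07, adjusted p = 0.00127, edgeR). The 6 fat cell markers summed to 0.0262 to 0.0935% of counts in young and 0.0201 to 0.0438% in old aortae, with medians of 0.0303 and 0.0292%. The highest value was that of young mouse 1, and the next highest young value was 0.0486%. The part of fat cells in the result for Aoc3 was not tested. Maob rose by 0.24 (SE 0.07, adjusted p = 0.0339, edgeR). The call of Maob was lost without young mouse 2, 4 or 5 or old mouse 1, 3 or 4, each alone, with adjusted p-values of 0.0608 to 0.0955 (edgeR).

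Of 16 tested genes known to regulate the transcription of Lox, 1 rose and 15 did not pass, with a median log2 fold change of −0.03. This share is near the 6.48% of all tested genes called higher. In the main test 10 of the 16 had a negative and 6 a positive log2 fold change. The group was not split by whether a gene raises or lowers Lox, so its median gives no direction for Lox. With DESeq2, 3 were lower and 2 higher, with limma-voom and quality weights 3 and 3, and in edgeR without young mouse 1, 3 and 2. Tgfb1, a cytokine known to raise Lox in several cell types, had 727 to 845 normalized counts in young and 854 to 1054 in old mice, a log2 fold change of 0.31 (SE 0.07, adjusted p = 0.0148, edgeR). Tgfb3, at −0.39 (SE 0.12), and Irf1, at 0.46 (SE 0.14), lay just outside the threshold (adjusted p = 0.0512 for both, edgeR). Both are named here after their values were seen. Over all 9 partner groups, 92 of 103 listed genes were tested, of which 20 were lower and 4 higher in old aortae. Of all tested genes, 4.99% were called lower and 6.48% higher. The median of the 92 log2 fold changes was −0.10.

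**Figure D5:**
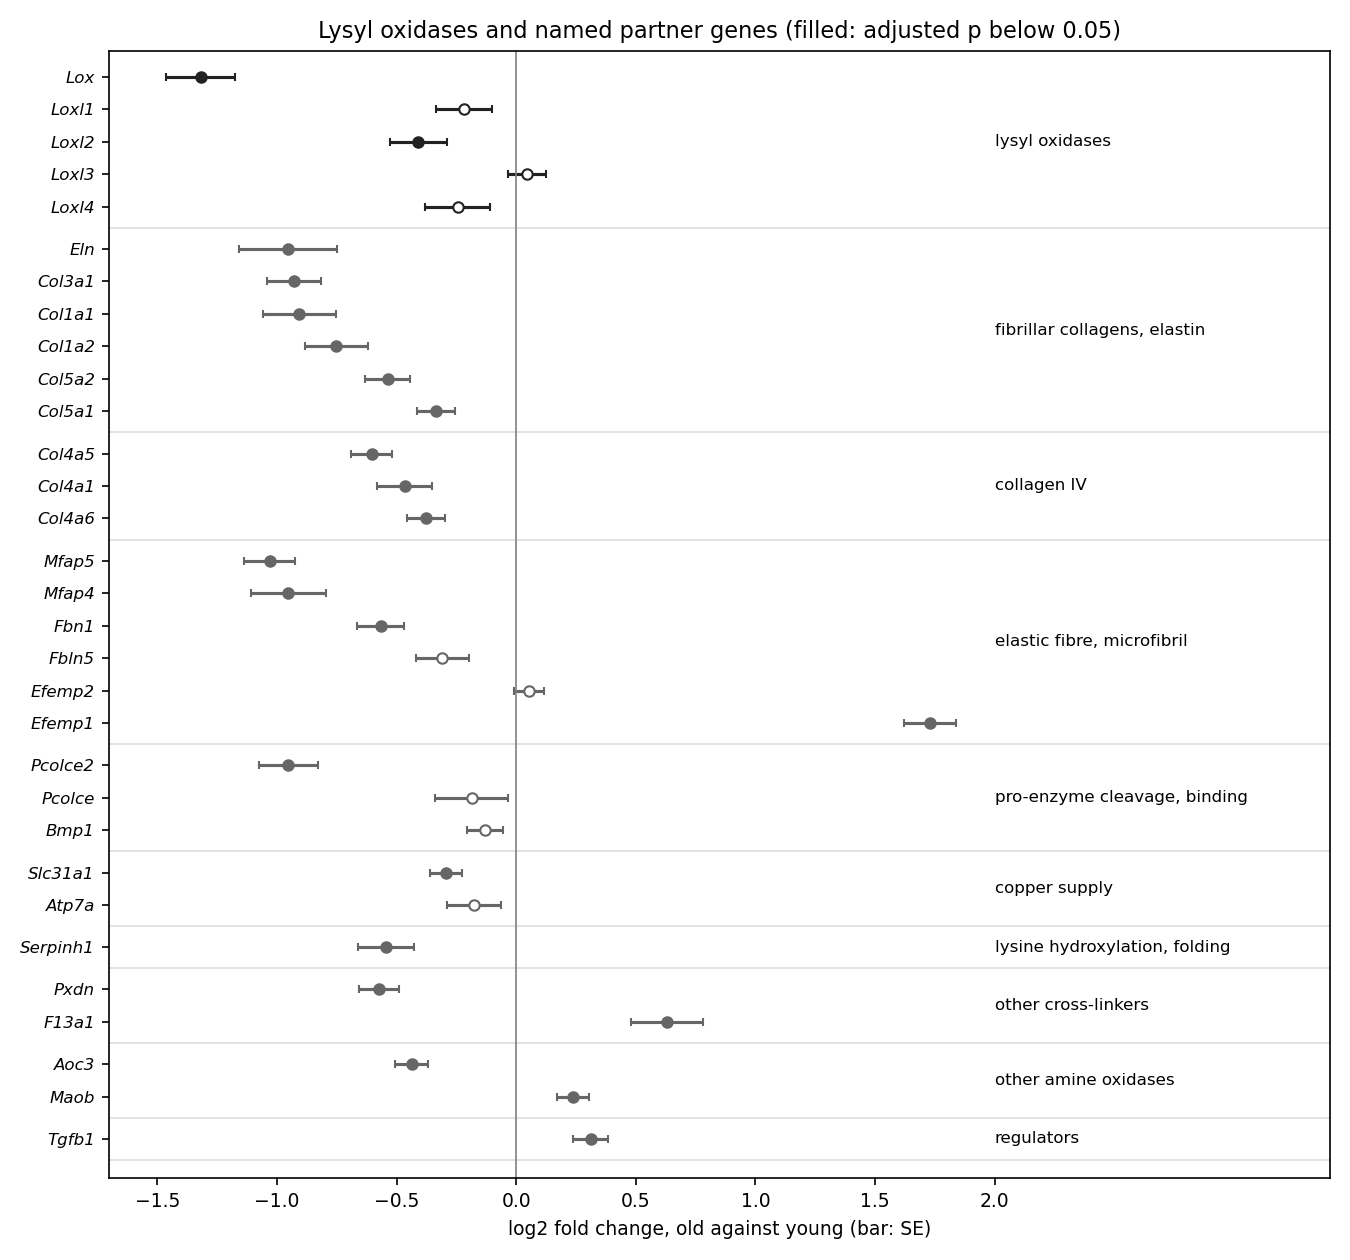
Log2 fold change of old against young aortae (horizontal axis, bars are SE) for the 5 lysyl oxidases and the 26 partner genes named by rule, grouped by role. Filled dots passed an adjusted p below 0.05. Lox lies farthest to the left, at −1.32, the collagen and elastin genes shown lie between −0.95 and −0.33, and Efemp1 lies farthest to the right, at 1.73.

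A piece of aorta holds several cell types, and in bulk RNA fewer cells of a type cannot be told apart from less RNA per cell. The 8 smooth muscle markers summed to 4.26 to 4.71% of counts in young and 3.84 to 4.61% in old aortae. Old mouse 2 had the lowest value, and without it Lox was still called, as given above. The 7 fibroblast markers summed to 0.345 to 0.411% in young and 0.35 to 0.477% in old aortae. Endothelial markers, 6 in number, took 0.0823 to 0.148% in young and 0.0435 to 0.102% in old aortae. Macrophage markers, also 6, took 0.0302 to 0.0404% in young and 0.0403 to 0.0802% in old aortae. The ranges overlapped between the ages in all 4 cell types, for macrophages only in young mouse 1, at 0.0404%, and old mouse 5, at 0.0403%. All 6 macrophage markers had a positive and all 6 endothelial markers a negative log2 fold change, of which 2 and 1 passed the test. Of the 8 smooth muscle markers, 5 had a negative and 3 a positive log2 fold change, and only Smtn passed, higher in old aortae. The 7 fibroblast markers were split, with 4 positive and 3 negative, and Lum was called higher and Pi16 lower. For the summed markers, the exact two-sided permutation p was 0.0159 for macrophages and 0.0476 for endothelial cells, or 0.143 and 0.19 when adjusted over all 9 cell type lists. By the same permutation test p was 0.532 for smooth muscle cells and 0.127 for fibroblasts, or 0.616 and 0.229 when adjusted. The endothelial median was 0.0911% in young and 0.0575% in old aortae, and the macrophage median 0.0345 and 0.0491%. No marker of these lists was at 0 in all libraries. The part of these differences in the values of the lysyl oxidases was not tested.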

How the data were processed

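RNA-seq libraries of 10 male mouse aortae, 5 per age, were analysed. The authors filtered reads with fastp 0.20.0, aligned them to GRCm38 with STAR 2.7.0f and counted them per gene with featureCounts of Subread 1.6.4. The deposited values are these raw counts, without normalization, for 55453 symbols. The strand setting and the treatment of reads with several alignments are not given in the sources used here. The age of old mice is taken from the labels, and the paper's text gives a slightly lower age. Symbols were matched by name to GENCODE M21, whereas the authors used the next release on the same build.

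Low counts were filtered with filterByExpr and ages compared with edgeR 4.0.16 (robust quasi-likelihood F test, TMM, no covariates, R 4.3.3), as the main test. The study itself used DESeq2, which was an alternative here (version 1.42.0), as was limma-voom (limma 3.58.1). Adjustment followed Benjamini and Hochberg over all tested genes, and calls were made below 0.05. The SE of a log2 fold change is its size over the root of F. Normalized counts used DESeq2 size factors. Levels per length used the union of exons and 27660 genes with a length, which held at least 99.6% of each library's counts. Ratios used a pseudocount of 0.5 and exact permutation over 252 assignments. Correlations used log2 CPM with a prior count of 2, less the age mean, and 100000 resamples. Permutation and model p-values set a difference or relation against the spread between mice. Squared differences between counts of 2 libraries of 1 age were 8.06 to 58.8 times those of counting error (chi-square over degrees of freedom, 20 pairs). None was therefore a duplicate.

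The lysyl oxidases, the partner groups and the tests were chosen with earlier results of these data known. Named partner genes were all called genes of a group where up to 6 were called, otherwise those with the 3 smallest p-values in each direction, and 10 genes given whatever their values (Eln, Col1a1, Col3a1, Fbn1, Fbln5, Efemp2, Bmp1, Pcolce, Atp7a, Tgfb1). Partner genes said to be named after their values were seen lie outside this rule. Alternatives were other scalings, filters, tools and thresholds, a GC content and length correction, a replicate block and the omission of each mouse. The sum of Loxl2 and Gm21451, the shortened length of Loxl2 and the omission of mice from correlations were added after seeing the data. RefSeq lists Loxl2 as an older synonym of Loxl3, and genes were matched by current symbol.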

Additional observations from a re-analysis of the deposited data

Results flagged for a closer look

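In 7 of 92 groups of 5 mice, 1 mouse lay far from the other 4, with a gap to the nearest mouse above 0.71 of the group's whole range (Dixon's 95% value). Chance gives this in about 1 in 20 groups. Young mouse 4 accounts for 3 of them, through its low count of Loxl4, which made up 0.715% of the family's transcripts there against 0.945% in the nearest young mouse. Its log2 ratio of Loxl2 to Loxl4 was 3.195 against 2.72 in the nearest young mouse, and that of Loxl3 to Loxl4 was 3.945 against 3.476. Old mouse 5 had a log2 ratio of Loxl1 to Loxl2 of 3.216 against 2.983 in the nearest old mouse. Among partner genes, Col1a1 was low in young mouse 3, at 44380.0 normalized counts against 59990.0 in the nearest young mouse. Mfap5 was high in young mouse 2, at 8056 against 6749 normalized counts. F13a1 was high in old mouse 3, at 4275 against 2869 normalized counts, and this mouse also had the highest summed macrophage markers, 0.0802% of counts. No cause of these values was tested.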

How the results depend on the processing

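Lox kept its direction and its call under all 22 alternatives, with log2 fold changes of −1.42 to −1.23 and adjusted p-values up to 0.00249. Loxl1, Loxl3 and Loxl4 stayed without a call under the same 22. Loxl2 kept its direction under all 22 but lost its call without a low-count filter (−0.41) and at a threshold of 0.01 (−0.41), with the number of called lysyl oxidases at 1 in both. Leaving out 1 mouse gave Loxl2 log2 fold changes of −0.48 to −0.34, and 1 to 2 called members, the lower number without young mouse 2, 3, 4 or 5 or old mouse 2, 4 or 5. Partner genes called lower numbered 32 with limma-voom and quality weights and 12 at a threshold of 0.01, those called higher 9 and 1, and all called genes 2643 and 658. Genes called lower numbered 729, but 1211 with the weights, 263 at 0.01, 1139 without young mouse 1 and 474 without young mouse 4. With a mouse left out, the ratio difference of Loxl1 to Loxl2 was 0.14 to 0.22, that of Loxl1 to Loxl3 −0.31 to −0.20 and that of Loxl3 to Loxl4 0.22 to 0.40. The correlation r was 0.671 to 0.886 for Lox and Loxl2, 0.636 to 0.87 for Lox and Loxl3 and 0.739 to 0.922 for Loxl1 and Loxl2. Lox and Loxl2 passed without old mouse 3, and Lox and Loxl3 without old mouse 3 or 4. Apart from the thresholds, which are stricter by construction, the cause of lost calls was not tested. With 5 mice per age, differences as small as the intervals of Loxl1, Loxl3 and Loxl4 could not be resolved.

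Both ages carry replicate numbers 1 to 5, but the labels do not say that the numbers pair the mice. With the age means removed, the correlations of same-numbered mice were −0.3 to 0.132, and 2 of 5 young mice correlated best with their own number. So few values cannot show whether the numbers pair the mice. With the replicate block, Loxl2 had −0.42 (adjusted p = 0.099, edgeR), 1 lysyl oxidase was called and 467 genes were called lower. In this paired fit Lox had −1.34, Loxl1 and the other members were not called, Col5a1 had an adjusted p of 0.0569 and Maob of 0.0548 (edgeR), and 18 partner genes were lower and 4 higher.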
